A study of Mus musculus with 2 samples.

Results

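The genes described here encode the proteasome, its activators, its inhibitor, and the factors that assemble it, and were taken by name alone: every gene whose platform symbol is Psm, a letter from a to g, and a number. This gave 47 genes on 100 probe sets, of 18193 genes and 34945 probe sets with a single gene symbol. Of these genes, 45 reached the floor, an intensity of 127 (the median of all probe set values), in at least 1 pool. The testis subunit Psma8 (35.1 in WT and 28.1 in KO) and the thymic subunit Psmb11 (84.3 and 89.8) did not. Psme2 is not among them, because its probe set is also assigned to Psme2b.

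The study compared C57BL/6 mice that were WT or Lrrc19 KO, all 6 weeks old and kept specific pathogen free. Each genotype was measured on 1 Affymetrix array, hybridized with an even pool of RNA from 5 animals (2 males and 3 females). The cells had been shaken off the intestine with EDTA, and CD4 and CD8 cells, B cells, dendritic cells (DCs), and macrophages were then removed with magnetic beads. The sources used here do not name the deleted exons. With a single array per genotype, no test could be run, the spread between mice is unknown, and all values compare these pools.

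The proteasome degrades proteins tagged with ubiquitin. Its 20S core particle is a barrel of alpha rings around beta rings, and the beta rings hold the active sites. The 19S regulatory particle binds the barrel ends, takes in ubiquitinated proteins, and unfolds them with a ring of ATPases. Interferon γ (IFNγ) induces alternative catalytic subunits, Psmb8, Psmb9, and Psmb10, which replace Psmb5, Psmb6, and Psmb7 in newly built cores (immunoproteasomes), together with the PA28 activator made of Psme1 and Psme2. These shift the peptides that the proteasome supplies to MHC class I, and leukocytes carry the immune subunits without stimulation.

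Proteasome genes were lower in the Lrrc19 KO pool almost throughout. Of the 45 measured genes, 44 were lower and 1, Psmg4, was higher, while 47.9% of all 12518 genes at or above the floor were lower by any amount. The median log2 difference (KO minus WT) was -0.34 over the 45 genes and 0.01 over all genes. Most differences were small. None of the 45 genes passed 2-fold in either direction (0.407% of all genes were at least 2-fold lower and 0.559% at least 2-fold higher). At 1.5-fold, 8 genes were lower and none was higher, or 17.8% against 3.40% of all genes for lower and 2.78% for higher. These were Psmb9, Psmb7, Psmb8, Psmb2, Psma7, Psme1, Psmb6, and Psma2, which are subunits of the core particle except for Psme1.

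Several measured facts stand beside this shift. Lrrc19 itself was at 905 in WT against 212 in KO on its brighter probe set and at 391 and 20.9 on the other. Scaling the arrays to an equal median moved each log2 difference down by 0.08. Centering on the 9 measured control genes moved each up by 0.07. After this, 42 of the 45 genes were lower, with Psmd2 and Psme4 joining Psmg4 above 0, and 37.4% of all genes were lower. Spike-in transcripts added before hybridization were brighter on the KO array at all 18 probe sets, with a median log2 difference of 0.50. Signal at the 3' end over that at the 5' end, a ratio that grows with RNA degradation, was higher in KO for Gapdh (1.26 in WT, 1.5 in KO) and the transferrin receptor (4.14 and 5.89), and close for Actb (1.75 and 1.77). The part of scaling and of RNA quality in the proteasome values was not tested.

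**Figure D1:**
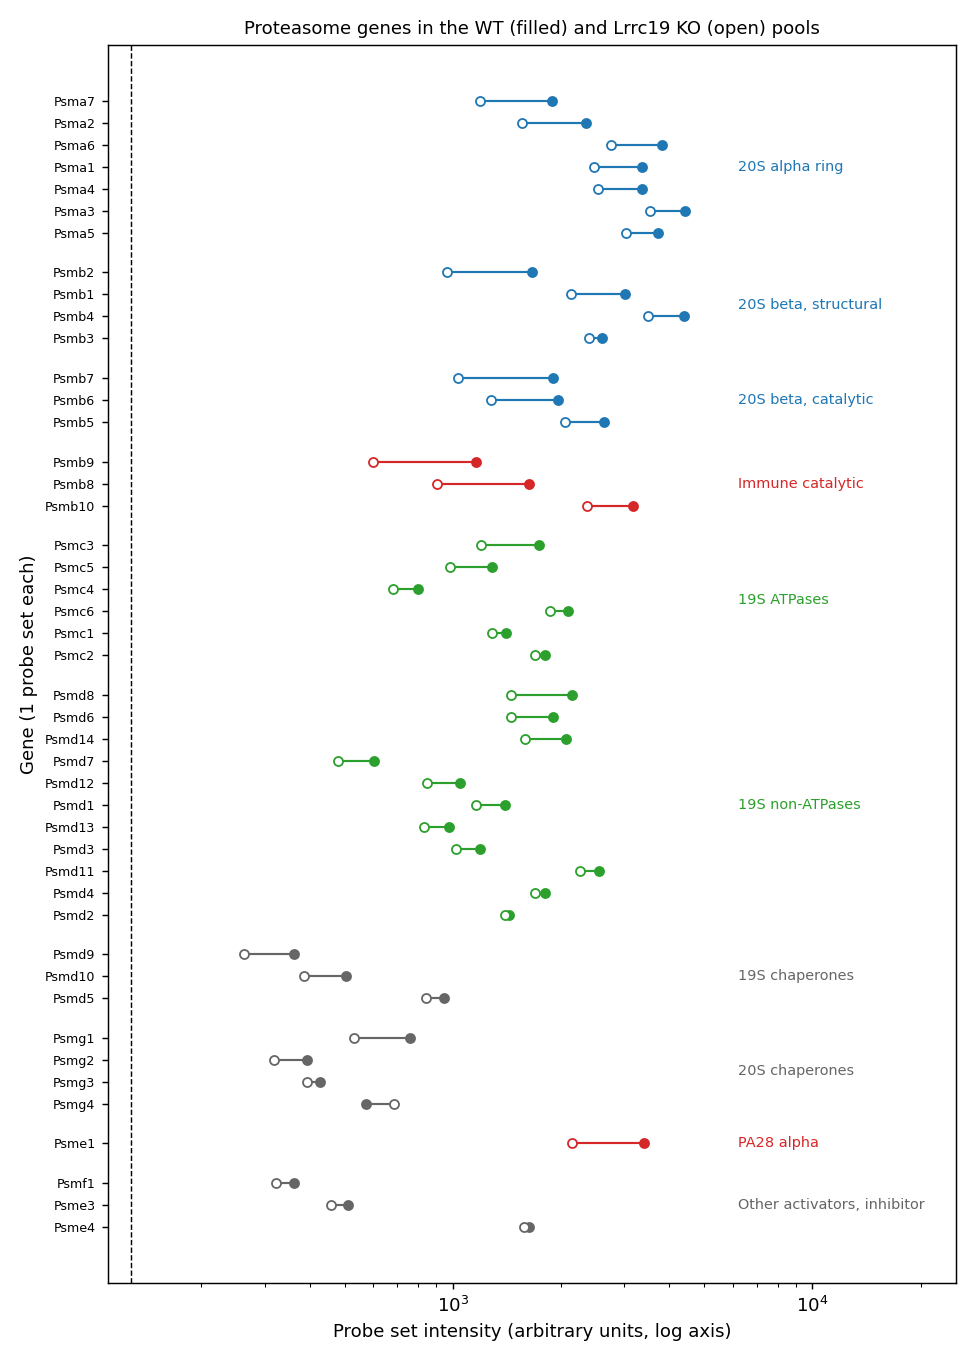
Intensity (log axis, arbitrary units) of the 45 measured proteasome genes, with filled points for WT and open points for Lrrc19 KO, from 1 probe set per gene and 1 array per genotype (hence without error bars). A dashed line marks the floor (127), and genes are read singly, since probe sets differ in brightness for reasons other than RNA level. Every open point except that of Psmg4 lies to the left of its filled point.

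The interferon-inducible subunits showed the largest median difference, ahead of the constitutive catalytic subunits (Psmb5, Psmb6, and Psmb7, median log2 difference -0.62). Psmb9, the inducible counterpart of the caspase-like subunit, was at 1157 in WT and 598 in KO (1.93-fold lower). Of the 12518 genes, 65 had a more negative difference. Psmb8, the counterpart of the chymotrypsin-like subunit, was at 1630 in WT and 906 in KO (1.80-fold lower). The other Psmb8 probe set stayed below the floor (36.0 and 22.3). Psme1, the PA28α chain of the activator, was at 3406 and 2151 (1.58-fold lower). Psmb10, the counterpart of the trypsin-like subunit, differed least, at 3180 and 2366 (1.34-fold lower). All 4 were lower in the KO pool, 3 of them past 1.5-fold, with a median log2 difference of -0.76.

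The constitutive genes were lower as well, by a smaller median. Of 41 genes, 40 were lower, 5 of them past 1.5-fold, and their median log2 difference was -0.33. The median of the inducible genes was thus more negative (difference of medians -0.43). A constant shift of an array cannot move this value, and quantile normalization gave -0.41. Without probe sets whose suffix marks more than 1 target transcript, the difference of medians was -0.27, and Psmb8 then had no value. The groups overlapped. Psmb10 (-0.43) was passed by 12 constitutive genes, and Psmb7 (-0.88) and Psmb2 (-0.78) lay below the inducible median. None was below Psmb9 (-0.95). The 41 constitutive genes are of several kinds. Medians were -0.23 for the 19S genes, -0.17 for chaperones and other regulators, and -0.46 for the constitutive core. The 3 constitutive catalytic subunits had a median of -0.62, and the 3 inducible catalytic subunits one of -0.85. In both sets of catalytic subunits, 2 of 3 genes were past 1.5-fold lower. Probe sets of the same gene differed from each other with a pooled SD of 0.24 on the log2 scale over 5007 genes, and of 0.30 over the 18 proteasome genes with several measured probe sets. This spread is within the arrays and holds no variation between mice, so the difference of medians, from 1 pair of pools and 4 inducible genes, has no error to be set against.

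The catalytic pairs did not all run the same way. Psmb8 (-0.85) was below the subunit it replaces, Psmb5 (-0.37), with a difference of -0.48 between the log2 differences. Psmb9 (-0.95) was below Psmb6 (-0.62), with a difference of -0.33. Psmb10 (-0.43) was above Psmb7 (-0.88), with a difference of 0.46. Psmb7, the constitutive trypsin-like subunit (1899 in WT, 1031 in KO, 1.84-fold lower), was thus further below WT than its inducible counterpart. Psmb6, the caspase-like subunit, was at 1960 and 1275, and Psmb5, the chymotrypsin-like subunit, at 2638 and 2048.

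Promoter sequences are shown for both kinds of catalytic subunit and for Psme1, since the inducible genes are known targets of interferon-activated factors and the constitutive ones of NRF1 (Nfe2l1), which raises proteasome genes when proteasome activity falls short. RefSeq windows of 300 bases (250 before the start and 50 after it, GRCm38.p6) were on hand for 39 of the 47 genes. They were searched on both strands for 4 motifs: the core of the interferon-stimulated response element (ISRE, GAAANNGAAA), the gamma-activated site (GAS, TTCNNNGAA), a κB motif (GGGNNNNNCC), and the core of the antioxidant response element (ARE, TGACNNNGC), to which NRF1 binds. Capitals mark the matches of the motif named for each gene, and base 0 is the start. Psmb8 held a GAS at bases -97 to -89, as shown here for chr17:34198045-34198194 (plus strand). Psmb9 held neither ISRE nor GAS but κB matches, some of them overlapping, in the 226 bases between its start and that of Tap1 on the opposite strand (chr17:34187331-34187555, minus strand). Psme1 held an ISRE core on the reverse strand at bases 9 to 18 (chr14:55578489-55578518, plus strand). Psme1 also held κB matches outside the stretch shown, at bases -126 to -117, -84 to -75, and -61 to -52.
Psmb8: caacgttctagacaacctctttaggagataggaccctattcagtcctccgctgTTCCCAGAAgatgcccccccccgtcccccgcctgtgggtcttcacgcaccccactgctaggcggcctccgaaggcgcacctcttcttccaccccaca
Psmb9: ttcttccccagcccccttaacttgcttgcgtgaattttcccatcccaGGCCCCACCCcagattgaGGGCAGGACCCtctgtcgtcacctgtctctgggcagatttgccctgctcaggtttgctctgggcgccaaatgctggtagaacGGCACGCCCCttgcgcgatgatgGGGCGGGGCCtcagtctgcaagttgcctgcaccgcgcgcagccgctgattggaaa
Psme1: gtttcgagctgtgcTTTCGCTTTCccttcc

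Of the constitutive catalytic subunits, Psmb5 (chr14:54617996-54618145, minus strand) and Psmb6 (chr11:70525207-70525356, plus strand) each held an ARE core, at bases -47 to -39 and at bases -9 to -1. Psmb6 also held a κB match at bases -186 to -177, outside the stretch shown. No window was on hand for Psmb7, and the window of Psmb10 held none of the 4 motifs.
Psmb5: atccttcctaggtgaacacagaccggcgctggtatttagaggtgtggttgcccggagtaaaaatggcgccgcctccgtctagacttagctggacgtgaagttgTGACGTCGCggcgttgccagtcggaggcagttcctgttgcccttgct
Psmb6: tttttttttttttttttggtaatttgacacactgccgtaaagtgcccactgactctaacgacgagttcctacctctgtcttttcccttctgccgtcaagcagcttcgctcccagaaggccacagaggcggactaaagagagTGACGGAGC

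Over the 39 genes, 5 held an ISRE core (3.44% of all 32851 windows in the table did), 3 a GAS (8.30% of all windows), 6 an ARE core (12.4%), and 21 a κB motif (50.8%). The genes with an ISRE core were Psme1, Psmb3, Psmd4, Psmd9, and Psmg4, and include the 1 gene that was higher in the KO pool. A match is a description of letters in these windows and not a binding site.

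On the probe set used for each gene, the core particle had a more negative median than the regulatory particle. All 14 constitutive core genes were lower, with a median log2 difference of -0.46 and 5 of them past 1.5-fold. All 17 genes of the 19S ATPases and non-ATPases were lower too, with a median of -0.23 and none past 1.5-fold. The ranges overlapped, from -0.88 to -0.12 in the core and from -0.56 to -0.04 in the 19S particle. Of the 14 core genes, 13 lay below the 19S median. The difference of these medians was -0.23. It has no error to be set against, since the pooled SD between probe sets (0.24) describes single probe sets of a gene. This difference was not put through the alternatives. Other measured probe sets gave more negative values for some 19S genes, such as Psmc4 (-0.47) and Psmc6 (-0.46). For others, such as Psmd13 (-0.01), they gave less negative values. Core genes also depended on the probe set. Other measured probe sets were less negative for Psmb4 (-0.05) and Psma6 (-0.07 and -0.19), and more negative for Psmb3 (-0.77) and Psma7 (-0.75).

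In the alpha rings, which form the gate of the barrel, the 7 measured genes lay between -0.67 and -0.30. Psma7 differed most (1891 in WT and 1190 in KO, 1.59-fold lower). A further probe set for it gave 1826 and 1084. Psma2 was at 2351 and 1561 (1.51-fold lower) and Psma5, which differed least, at 3731 and 3024. Of the beta subunits with no active site, Psmb2 was at 1659 and 965 (1.72-fold lower) and Psmb3 at 2598 and 2387 on its brightest probe set. The other probe set of Psmb3 went from 1939 to 1137, so that the size of its difference depends on the probe set.

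The 6 ATPases, which unfold substrates and thread them into the core, had a median log2 difference of -0.20. Psmc3 was at 1739 in WT and 1201 in KO (1.45-fold lower), whereas Psmc2 differed least, at 1802 and 1698. The other probe set of Psmc2 that reached the floor gave 1352 and 908. Among the 11 non-ATPase subunits (median -0.27), Psmd8 was at 2145 and 1453. Psmd14, the deubiquitinase that removes ubiquitin chains from substrates, was at 2069 and 1586. Psmd4, a ubiquitin receptor, was at 1805 and 1689, and Psmd2, a scaffold of the base, hardly differed (1435 and 1399).

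Assembly factors and the remaining regulators were lower too, apart from Psmg4. The 10 genes of this kind had a median log2 difference of -0.17, and none passed 1.5-fold on its representative probe set. The chaperones of the 19S base were all lower (median -0.39), from Psmd9 (362 in WT and 262 in KO) to Psmd5 (947 and 841). Of the chaperones that build the alpha ring, Psmg1 was at 759 and 533 and Psmg4 at 572 and 688 (1.2-fold higher), the single gene of the 45 above 0. Psmg2, another of them, depended on the probe set, with 394 and 319 on the one used and 396 and 225 (1.76-fold lower) on another. The median was -0.21 over these 4 chaperones and -0.16 over the 3 activators and inhibitors that follow. The nuclear activator Psme3 was at 512 and 459. The activator PA200, encoded by Psme4, was at 1631 and 1578, and the inhibitor-like regulator Psmf1 at 362 and 322.

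**Figure D2:**
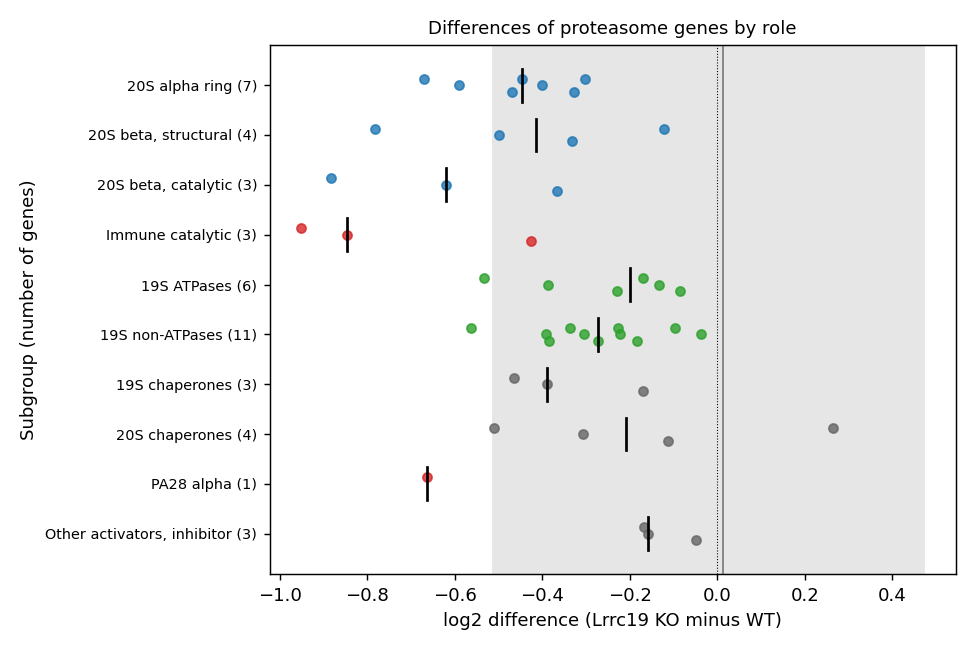
The log2 difference (Lrrc19 KO minus WT) of each measured proteasome gene (points) by role, with the subgroup median (black bar) and the number of genes in parentheses. The grey band spans the 5th to the 95th percentile of all 12518 genes (-0.51 to 0.47) and the grey line is their median. Core subunits (blue) and inducible genes (red) reach furthest to the left, and Psmg4 is the single point to the right of 0.

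The brightest probe set did not always speak for a gene. Over all 73 proteasome probe sets at or above the floor, 65 were lower and 8 were higher in the KO pool. The 27 probe sets under the floor in both pools were split, with 13 lower and 14 higher. In 3 genes, measured probe sets lay on both sides of 0 by more than 0.3. Psma3 was at -0.33 on its bright probe set and at 0.31 on a dim one (102 in WT and 127 in KO). Psmd11 ranged from -0.57 to 0.30 and Psme4 from -0.48 to 0.37. Psmb1 came close to this, with 3016 and 2134 on the brightest probe set and 734 and 901 on another. With all probe sets of a gene averaged, dim ones included, Psma1, Psmd9, Psmd13, Psme4, and Psmg3 were no longer lower.

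**Figure D3:**
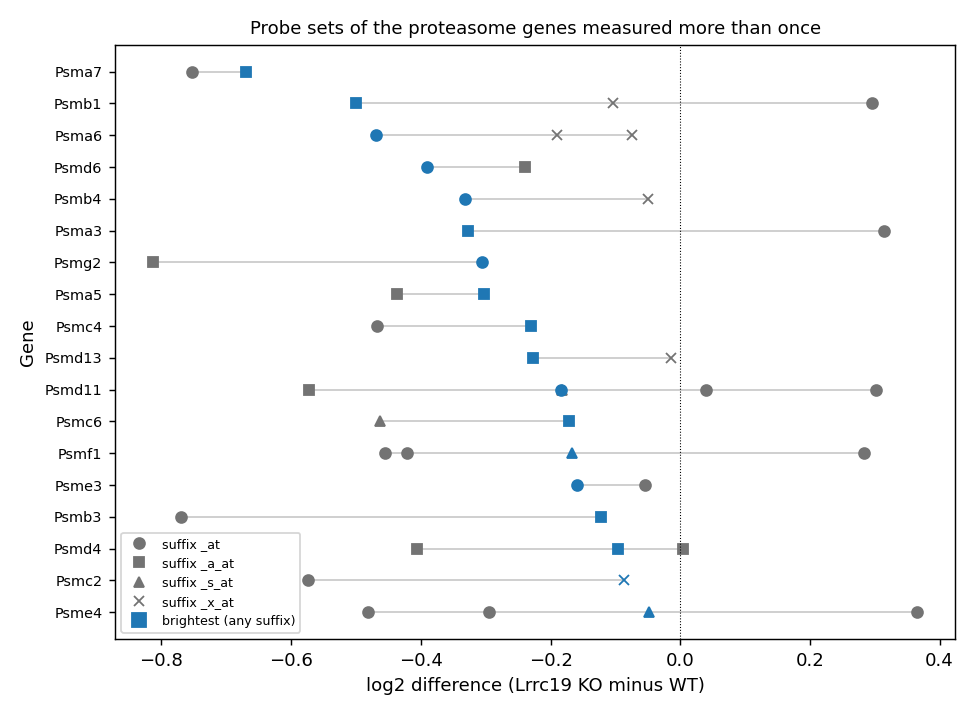
The log2 difference (Lrrc19 KO minus WT) of each probe set at or above the floor, for the 18 proteasome genes with several such probe sets. Blue marks the probe set that stands for the gene, and shapes give the suffix (_s_at and _x_at can match transcripts of other genes, _a_at several transcripts of the same gene). Probe sets of Psmb1, Psma3, Psmd11, Psmf1, Psmd4, and Psme4 lie on both sides of 0.

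Genes that act next to the proteasome moved less, and not all in the same direction. Of 18 listed partners of the proteasome 12 were measured, with 8 lower and 4 higher, none past 1.5-fold, and a median log2 difference of -0.10. Uchl5, a deubiquitinase of the 19S particle, was at 538 in WT and 377 in KO. Pomp, which guides core assembly, was at 2795 and 2285. Nfe2l1 itself was at 754 and 882 (0.22), and the ubiquitin shuttle Ubqln4 at 373 and 459 (0.30). Of 6 listed ubiquitin and E1 genes, Uba6 alone was on a single-gene probe set (390 and 367).

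Genes of MHC class I and of its peptide transport, trimming, and loading were lower in 9 of 10 cases, against 47.9% of all genes. Their median log2 difference was -0.26, and 3 were past 1.5-fold lower (3.40% of all genes were). These 3 were the folding enzyme Pdia3 (3665 in WT and 2093 in KO), the peptide-trimming enzyme Erap1 (769 and 506), and the peptide transporter chain Tap1 (845 and 557). Tap1 lies between Psmb9 and Psmb8 in the RefSeq gene order. Tap2, the neighbor of Psmb8 on the other side, was at 419 and 389. The others were Calr (-0.37), B2m (-0.34), H2-D1 (-0.19), H2-K1 (-0.09), Tapbp (-0.02), and Tapbpl (0.07). Of 10 genes of IFNγ signaling and its transcription factors, 4 were lower and 6 were higher, none past 1.5-fold, with a median of 0.12. Jak2 was at 1456 and 1941, Irf1 at 2627 and 3080, and Irf9 at 476 and 402.

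Markers of the cell types did not all move in the same direction. In RNA from a mixed preparation, fewer cells of a type and less RNA per cell cannot be told apart. All 10 epithelial markers were measured, with 8 of them higher in KO (median log2 difference 0.05, summed intensity 79357 in WT and 83834 in KO). Of the 8 general leukocyte markers 7 were lower (median -0.20, summed 4339 and 3799), with Cd53 at 464 and 318 and Ptprc at 982 and 953. Of 7 T cell markers on the array, 6 reached the floor, with 3 lower and 3 higher (median 0.04, summed 1525 and 1499), from Cd3g (264 and 171) to Cd8a (388 and 456). Of 10 macrophage and DC markers, 8 reached the floor, with 5 lower and 3 higher (median -0.11, summed 6555 and 5636), from Adgre1 (606 and 363) to Cd14 (908 and 988). Of 7 B and plasma cell markers on the array, 6 reached it, with 4 lower and 2 higher (median -0.08, summed 10639 and 10060). All 7 smooth muscle markers were higher in the KO pool (median 0.40, summed 48670 and 64613), although the labels give epithelial cells. Markers of depleted cells were thus measured in both pools. The part of these cells in the proteasome values was not tested.

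Other large complexes gave a scale for the shift. The 66 measured genes of the respiratory chain, counted here with ATP synthase, had a median log2 difference of -0.15. Of these, 64 were lower, with Cox7c (1.95) as the highest. The 43 measured ribosomal protein genes, taken by name and so including related genes such as Rpl3l and Rps4l, had a median of -0.15. Of these, 37 were lower. The replication helicase (Mcm2 to Mcm7) and the replication clamp (Pcna) had a median of -0.33 over 7 genes, of which 6 were lower. This median was close to that of the constitutive proteasome genes. The lower direction was therefore shared with these groups, and the proteasome median (-0.34) was more negative than those of the respiratory chain and the ribosome. These groups were chosen after the proteasome values were seen, and the differences between them were not tested.

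**Figure D4:**
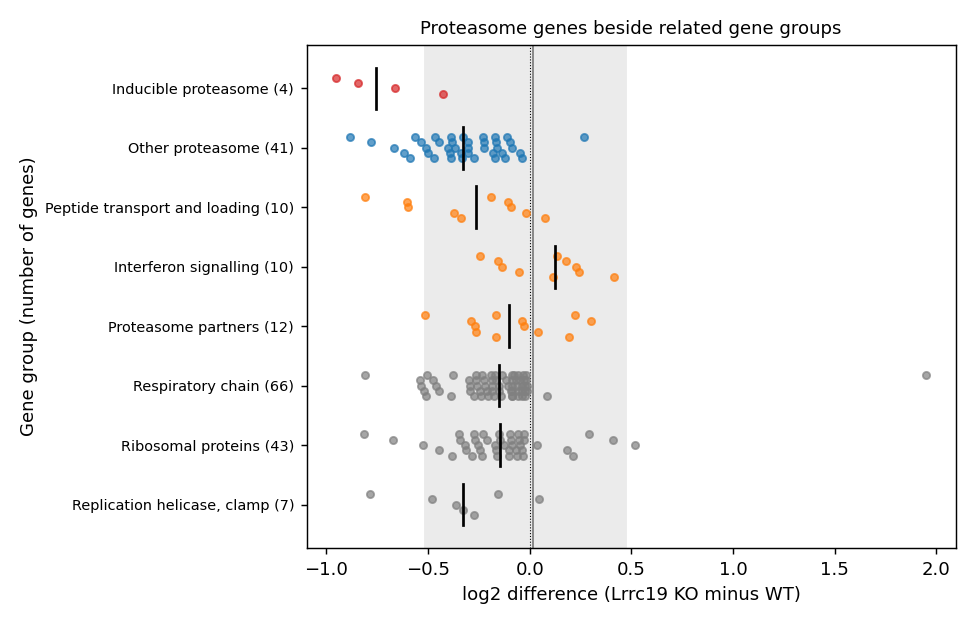
The log2 difference (Lrrc19 KO minus WT) of inducible (red) and other (blue) proteasome genes, of genes that act beside them (orange), and of other complexes (grey), with the median of each group (black bar) and the number of genes in parentheses. The grey band spans the 5th to the 95th percentile of all genes (-0.51 to 0.47). The bars of most groups lie to the left of 0, furthest for the inducible genes (-0.76), and that of IFNγ signaling lies to the right (0.12).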

How the data were processed

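Intestinal cell RNA was pooled by genotype (WT or Lrrc19 KO), and each pool was measured on 1 array. The values deposited by the authors are probe set intensities on a linear scale. RMA is the tool given in the processing notes of the submitters (version not stated), but RMA usually returns log2 values of equal distribution, and the medians here were 124 in WT and 131 in KO. Those notes do not say what scaling was applied between arrays, and precision is limited by having 1 array per genotype.

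Values under 1 were set to 1, log2 was taken, and the difference was KO minus WT. Of 45101 probe sets, 64 were controls and 34945 had a single gene symbol in the platform annotation. The 932 with several symbols and the 9160 without a name here were not used. Gene identifiers served to update symbols from RefSeq (GRCm38.p6), where 34741 probe sets matched. A gene was represented by its probe set with the highest mean log2 value of both arrays. Genes were kept when at least 1 array reached the 50th percentile of all values (127). Groups are described by counts and medians beside those of all genes. No test or p-value was possible.

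The alternatives were 3 other scalings, other choices of probe sets, other floors, an offset of 50, and other choices of genes. Genes were named by role, by size within each role, and from the 5 interferon-inducible genes, of which Psme2 has no value here. Tap2, Pomp, Nfe2l1, Irf1, Psmb1, Psmd4, Psmd14, Psme3, Psmg2, Ptprc, Cd8a, Cd14, and Cox7c were named after their values were seen. So were Psmb4, Psma6, Calr, B2m, H2-D1, H2-K1, Tapbp, Tapbpl, Rpl3l, and Rps4l. The members and gene lists were chosen with earlier results of these data known. The scripts were tested on simulated data and ran in Python 3.11.15 with numpy 2.4.6 and pandas 2.3.3.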

Additional observations from a re-analysis of the deposited data

How the results depend on the processing

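The medians of the inducible and the constitutive genes, the difference between them, the counts at 1.5-fold, and the catalytic pairs kept their direction wherever they had a value. For the difference of medians and the pairs this says little, because a constant shift of an array cancels in them. Psmb5, Psmb6, Psmb7, Psmb9, and Psmb10 have 1 probe set each, well above the floors. Other floors or choices of probe sets thus could not move the pairs of Psmb9 with Psmb6 and Psmb10 with Psmb7. Another setting counted as a change when it moved a value by more than the SD between probe sets of a gene (0.24). For counts the margin was a move by more than 1.5 times. The SD was taken because no replicate spread exists. It describes single probe sets and is wide beside the difference of medians (-0.43), so staying within it says little. The inducible median ranged from -0.84 to -0.66 and the constitutive one from -0.41 to -0.25. The difference between them ranged from -0.52 to -0.27 over 13 alternatives, and was smallest once probe sets with the suffix _s_at, _x_at, or _a_at were dropped, where Psmb8 had no value left. With both arrays set to the same median, 1 gene, Psmb9, passed 2-fold (log2 difference -1.03). Counts at 1.5-fold lower ranged from 6 (arrays centred on control genes, or quantile normalization) to 11 (same median). Of all genes, 2.45%, 3.36%, and 5.21% passed in these settings, in that order. Between 33 and 45 genes were lower by any amount. The lowest count was of 36 genes measured without probe sets of those suffixes, where 47.6% of all genes were lower. The highest was of 47 genes with no floor (46.4% of all genes). Over the settings, the share of all genes that were lower ranged from 37.4% (control genes) to 60.2% (same median). Leaving out just the probe sets that can match transcripts of other genes, or Psme1 or Psmb10 from the inducible genes, was tried after the data were seen. Psme1 and Psmb10 differed least of the inducible genes, so leaving out either could only make the difference of medians more negative (-0.52). Psmb9 was not left out in turn, and Psmb8 was out only where its probe set was dropped. No paired analysis was possible because each genotype had 1 pool. A log2 difference smaller than the spread between probe sets cannot be read as a change of that gene. A larger one is not shown to be a change either, because this spread holds no variation between mice.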
